A study of Mus musculus with 6 samples.

Results

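Receptors of the TNF superfamily other than CD40 were examined in CD11b+Gr-1+ cells from mouse liver, 3 hours after concanavalin A (Con A). The set is defined by gene symbol and holds Fas, Ltbr, Tnfrsf1a, Tnfrsf1b, Tnfrsf4, Tnfrsf9, Tnfrsf13b, Tnfrsf14, Tnfrsf18 and Tnfrsf26. All 10 were found among 19938 genes with a symbol of their own on the array, each with 1 probe set, so 10 of 35556 rows carry the values below. The study had 6 arrays, 3 in each of 2 groups.

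The Con A group consisted of C57BL/6 mice with established EL4 tumours (EL4 is a mouse T cell lymphoma line) that were injected with Con A, a lectin used to provoke T cell driven liver inflammation. The PBS group came from the same tumour model and received PBS (the sample titles call it untreated). The labels give the Con A dose as 12.5 mg/kg in one place and as 12.5 ug/kg in another, so it is unsettled here. All mice were tumour-bearing, and no group without a tumour was analysed. The labels call the sorted cells myeloid-derived suppressor cells, and the study's title links them to CD40, to maturation and to loss of suppressor function. The labels state 3 mice per group but neither age nor sex, nor whether each array holds 1 mouse. The p-values therefore reflect array-to-array spread only, and part of it may be technical.

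TNF superfamily receptors are membrane proteins with cysteine-rich outer domains that are engaged by trimeric ligands. A few, such as Fas and TNF receptor 1, carry a death domain that can start caspase 8 activation, while most recruit TRAF adaptors and feed into NF-kB. In myeloid cells they set survival and inflammatory output, and TNF itself is a known mediator of liver injury in this lectin model.

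The sort itself was read from its markers. Itgam, which encodes CD11b, was 12.80, 12.73 and 12.77 after Con A and 13.06, 12.94 and 12.76 after PBS, and Ly6g, which carries the Gr-1 epitope, was 13.56, 13.46 and 13.49 after Con A and 13.69, 13.57 and 13.51 after PBS. Granulocytic markers averaged 13.34 to 13.36 after Con A and 13.33 to 13.48 after PBS, and 1 of 10, Mmp9, fell. Con A replicate 2 stood apart in Kupffer and hepatocyte markers, whose mean log2 levels were 9.60 and 8.28 there, against 7.999 to 8.54 and 7.35 to 7.37 in the other Con A arrays and 8.11 to 8.52 and 7.33 to 7.44 after PBS. Replicate 3 of each group stood apart in dendritic cell markers, whose mean log2 level was 7.75, 7.999 and 8.496 in Con A replicates 1 to 3 and 7.94, 7.87 and 8.48 in PBS replicates 1 to 3. Of these 10 markers, 0 rose and 1 fell by limma (1 and 1 at an unadjusted p under 0.05). Cd209a, a lectin of monocyte-derived dendritic cells, was 9.14, 9.37 and 11.52 after Con A and 9.20, 9.17 and 11.13 after PBS. Ccr7, a homing receptor of mature dendritic cells, was 8.28, 8.68 and 10.24 after Con A and 8.22, 8.25 and 9.78 after PBS. Itgax, Batf3 and Zbtb46 were also highest in replicate 3 of each group. The other markers of the list, Flt3, Xcr1, Clec9a, Siglech and Wdfy4, were not highest there in both groups. The deposited values carry no detection calls, so no marker can be called absent.

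**Figure D1:**
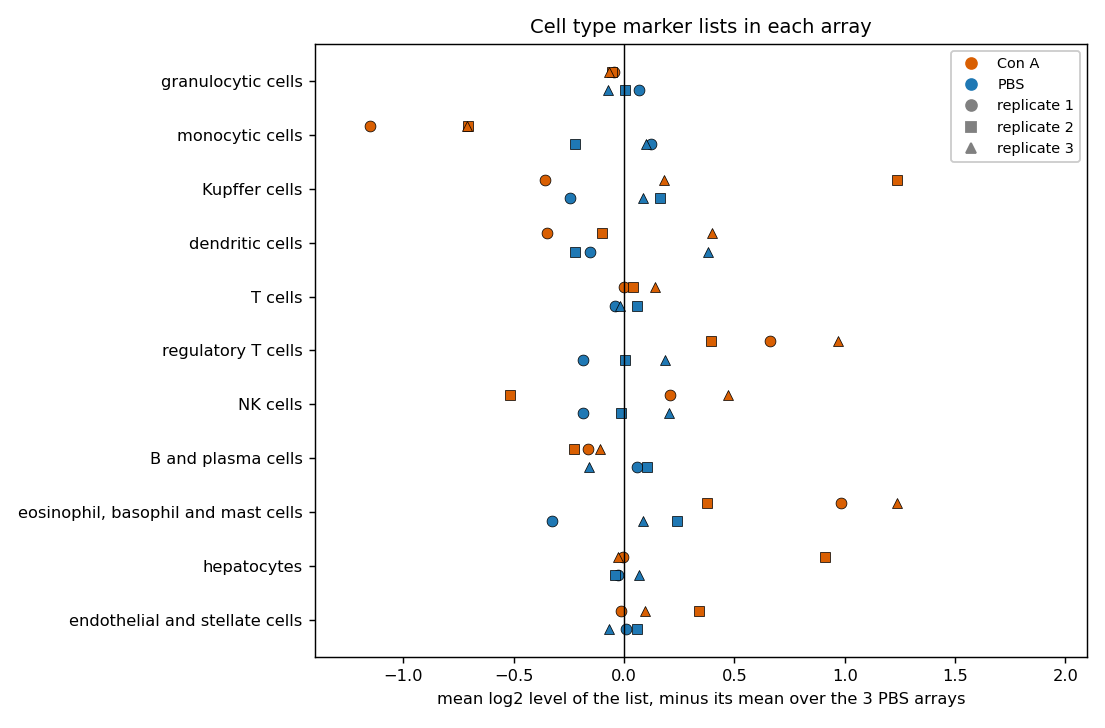
Mean log2 level of each cell type marker list in each array, minus its mean over the 3 PBS arrays (horizontal axis), with Con A points above PBS points in each line and shapes for replicate numbers. Con A replicate 2 stands apart in the Kupffer and hepatocyte lists, replicate 3 of each group in the dendritic list, and monocytic markers lie lower in all 3 Con A arrays.

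Of the 10 receptor genes, 6 rose after Con A and 0 fell (limma, Benjamini-Hochberg adjusted over all genes). Over all 19938 genes, 11.8% were called, 4.59% higher and 7.22% lower. The receptors were chosen with earlier results of these data known, so the shares over all genes are given for scale only. Among the 18 other genes of the receptor superfamily on the array, 0 rose and 3 fell. The 6 members that rose were Tnfrsf26, Tnfrsf18, Fas, Tnfrsf4, Tnfrsf13b and Tnfrsf14. A rise of at least 2-fold was found for 3 of them, against 1.2% of all genes. No member was lower at an unadjusted p under 0.05 either (0), and 7 were higher. The median difference of the 10 was 0.41 on the log2 scale, against 0.02 over all genes. All 3 Con A arrays lay above all 3 PBS arrays for 7 of the 10 genes, as they did for 14.4% of all genes, and below them for 0 of the 10, against 15.6% of all genes. Without PBS replicate 1 the count that rose was 3. Without Con A replicate 2, the array with more Kupffer and hepatocyte marker signal, 5 rose, and the exception was Tnfrsf14. Without both that array and PBS replicate 3, 4 rose (Tnfrsf26, Tnfrsf18, Fas and Tnfrsf4), a setting added after the data were seen. In sorted cells measured in bulk, a change in the number of cells of a type and a change in RNA per cell cannot be told apart.

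**Figure D2:**
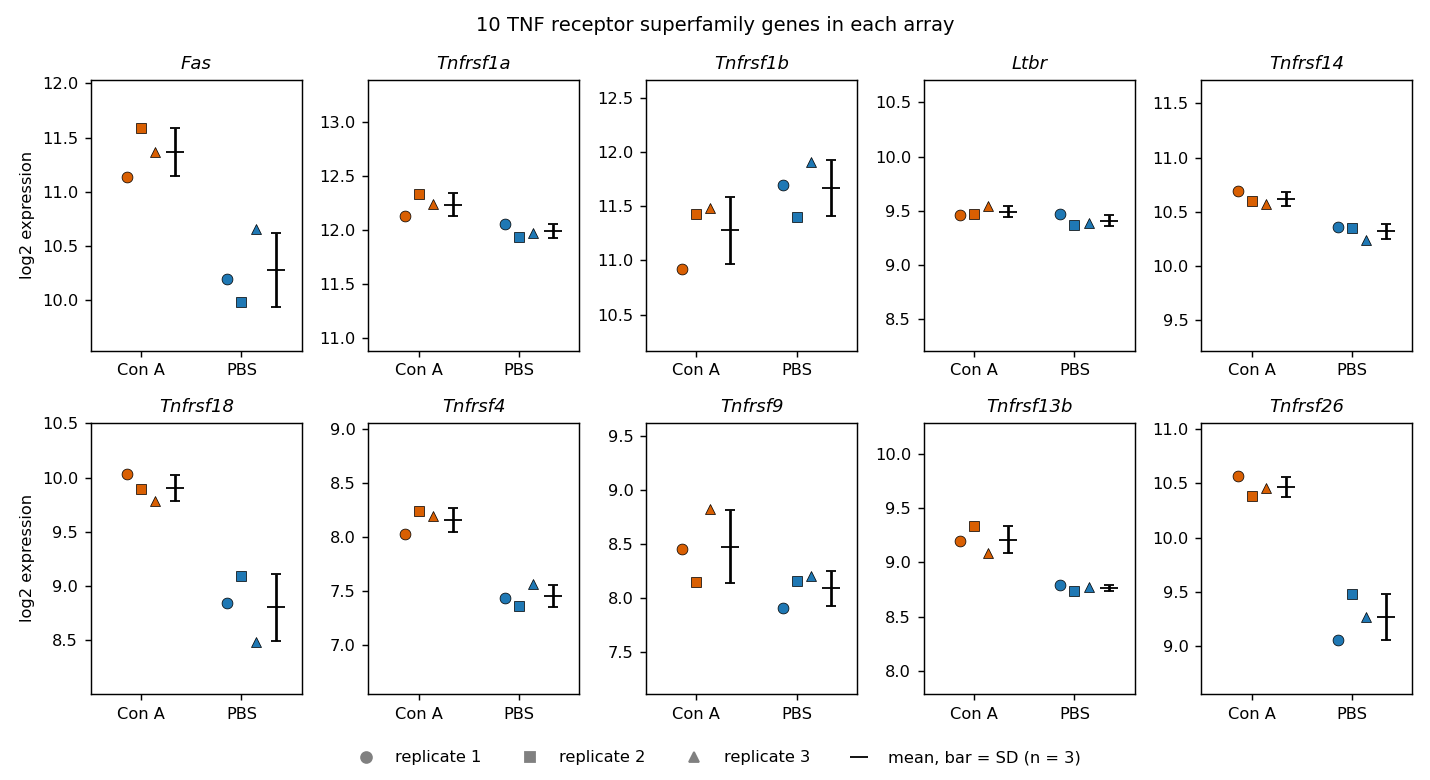
Level of each receptor gene (vertical axis, log2 expression as deposited) in the 3 Con A and 3 PBS arrays, with marker shapes for replicate numbers and bars for mean ± SD (n = 3). Each panel has its own range of equal span. The Con A points of Fas, Tnfrsf18, Tnfrsf26, Tnfrsf4, Tnfrsf13b, Tnfrsf14 and Tnfrsf1a lie above all PBS points, while those of Tnfrsf1b, Tnfrsf9 and Ltbr overlap them.

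Fas, the death receptor that FasL engages, was 11.14, 11.59 and 11.37 in Con A replicates 1 to 3, against 10.20, 9.98 and 10.65 in PBS replicates 1 to 3 (log2 level). The groups did not overlap, and PBS replicate 3, the PBS array with the highest mean of the dendritic cell list, stood nearest to the Con A arrays. Among the Con A arrays, Fas was highest in replicate 2, the array with more Kupffer and hepatocyte marker signal. The dendritic cell list was highest there in replicate 3. The part of dendritic cells or of other cell types in the Fas values was not tested. Fas averaged 11.36 ± 0.22 after Con A and 10.28 ± 0.34 after PBS (SD, n = 3 each), a 2.12-fold rise (log2 difference 1.09, 95% interval 0.65 to 1.52, limma adjusted p = 0.01). The limma adjusted p was 0.0537 without PBS replicate 1, where the difference was 1.05, and 0.0487 without Con A replicate 2.

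Tnfrsf1a, which encodes TNF receptor 1, the other death domain receptor of the set, was 12.12, 12.33 and 12.24 after Con A and 12.06, 11.94 and 11.98 after PBS. All Con A arrays were higher, by a small margin, and the difference of 0.24 (95% interval 0.05 to 0.44) did not pass the test (limma adjusted p = 0.112). The promoter window of Fas is shown because it was 1 of 2 member genes with a match to the AP-1 motif. It spans chr19:34290409-34290708 on the plus strand of GRCm38.p6 (RefSeq), from 250 bases before the annotated start to 50 bases after, and capitals mark the matches to AP-1 (first base at -211) and to the GAS motif (first base at -93).
Fas: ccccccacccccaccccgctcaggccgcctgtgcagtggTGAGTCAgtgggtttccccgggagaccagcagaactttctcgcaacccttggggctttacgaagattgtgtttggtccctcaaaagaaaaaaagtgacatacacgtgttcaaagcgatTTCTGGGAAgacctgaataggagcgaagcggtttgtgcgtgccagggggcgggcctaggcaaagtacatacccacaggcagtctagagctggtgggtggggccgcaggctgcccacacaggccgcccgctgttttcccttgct

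The promoter windows were searched on both strands for 4 motifs, namely the NF-kB consensus, AP-1 as TGANTCA, the GAS element of STAT factors as TTCNNNGAA and the ISRE of interferon response (GAAA, any 2 bases, GAAA). RefSeq windows matched 9 of the 10 genes, with 10 windows in all because Tnfrsf9 has 2. Tnfrsf26 had none. A GAS match lay in 5 of the 10 windows, those of Fas, Tnfrsf18, Tnfrsf1a, Tnfrsf1b and Tnfrsf9, against 8.3% of 32851 promoter windows of the same length. An ISRE match lay in the windows of Tnfrsf14 and Tnfrsf1b, against 3.44% of all windows. AP-1 was found for Fas and for the downstream window of Tnfrsf9, against 7.81%, and the NF-kB consensus in that Tnfrsf9 window alone, against 8.46%. Windows with a match belonged to genes that passed the test and to genes that did not.

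Tnfrsf1b encodes TNF receptor 2, which has no death domain and binds TRAF2. Its level was 10.92, 11.43 and 11.48 in Con A replicates 1 to 3, against 11.70, 11.40 and 11.91 in PBS replicates 1 to 3. The groups overlapped, with Con A replicate 1 below the other 5 arrays. It was the single member with a lower mean after Con A, at 11.28 ± 0.31 against 11.67 ± 0.26 after PBS, and the difference of -0.39 (95% interval -0.82 to 0.03) did not pass (limma adjusted p = 0.241). Monocytic marker genes moved beside it. Of 9 measured, 4 fell and 1 rose, and their mean log2 level was 9.68, 10.12 and 10.12 in Con A replicates 1 to 3 and 10.61 to 10.95 after PBS. Con A replicate 1 was lowest in both, and the part of monocytic cells in the Tnfrsf1b values was not tested.

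The gap between the TNF receptor genes was also compared within each array, which asks if they changed unequally and says nothing about which is more abundant. Tnfrsf1b minus Tnfrsf1a was -1.20, -0.91 and -0.76 after Con A, against -0.36, -0.54 and -0.06 after PBS. All Con A arrays lay below all PBS arrays, with means of -0.96 ± 0.23 after Con A and -0.32 ± 0.24 after PBS (SD, n = 3 each), a difference of -0.64 on the log2 scale. A two-sided exact permutation test gave p = 0.1, the smallest that 3 against 3 arrays allow, and 0.15 adjusted over the 3 pairs compared. This permutation test cannot reach 0.05 with 3 arrays in each group.

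Ltbr, the lymphotoxin beta receptor, was 9.46, 9.47 and 9.55 after Con A and 9.47, 9.37 and 9.38 after PBS. These levels overlapped. The difference was 0.08 ± 0.07 (SE), with a 95% interval of -0.08 to 0.25 (limma adjusted p = 0.528), which excludes a change of 2-fold. In the RefSeq gene table Ltbr and Tnfrsf1a lie on the same chromosome with 1 protein-coding gene, Scnn1a, between them. Their gap within arrays (Ltbr minus Tnfrsf1a) differed by -0.16 between Con A and PBS, with all Con A arrays below all PBS arrays. The exact permutation p was 0.1, the smallest that this test allows, and 0.15 adjusted over the 3 pairs.

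Tnfrsf14 encodes HVEM, which binds LIGHT and, outside the TNF family, the inhibitory receptor BTLA. It was 10.69, 10.60 and 10.57 after Con A and 10.36, 10.35 and 10.24 after PBS. The groups did not overlap, and the spread within each was narrow (0.07 SD in each). The rise of 0.30, or 1.23-fold (95% interval 0.13 to 0.48), passed narrowly at an adjusted p of 0.0418 by limma. It missed the threshold in each of the 6 fits that left out 1 array, at adjusted p between 0.0837 and 0.132.

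**Figure D3:**
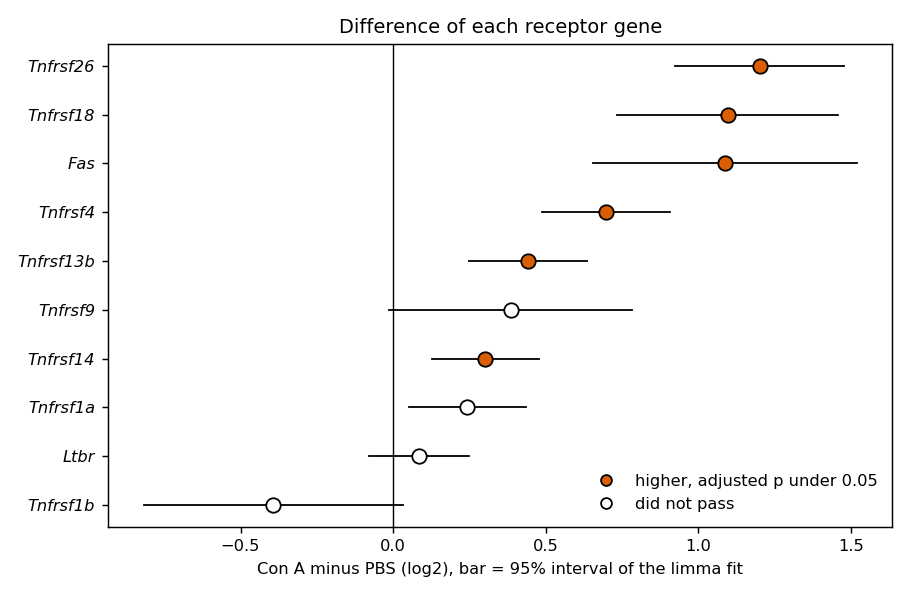
Difference of each receptor gene, Con A minus PBS (horizontal axis, log2), with the 95% interval of the limma fit over 3 Con A and 3 PBS arrays, and filled points for genes that passed at an adjusted p under 0.05. Tnfrsf26, Tnfrsf18 and Fas lie beyond 1, and Tnfrsf1b is the gene below 0.

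Tnfrsf18, Tnfrsf4 and Tnfrsf9 encode GITR, OX40 and 4-1BB, receptors best known as costimulators of activated and regulatory T cells and also found on some myeloid and granulocytic cells. Tnfrsf18 was 10.03, 9.90 and 9.78 in Con A replicates 1 to 3, against 8.84, 9.10 and 8.48 in PBS replicates 1 to 3. The groups were separated by 0.69 log2 units, and unlike Fas, whose highest PBS array was replicate 3, Tnfrsf18 was lowest there. It rose 2.14-fold, averaging 9.90 ± 0.12 after Con A and 8.81 ± 0.31 after PBS (log2 difference 1.10, 95% interval 0.74 to 1.46, limma adjusted p = 0.00496). The call held in all 6 fits without 1 array, with adjusted p up to 0.0297.

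Tnfrsf4 was 8.03, 8.24 and 8.19 after Con A and 7.44, 7.37 and 7.56 after PBS. Every Con A array was higher by at least 0.46. It rose 1.62-fold (log2 difference 0.70, 95% interval 0.49 to 0.91, limma adjusted p = 0.0035), and stayed called in all 15 alternatives, with adjusted p up to 0.0463. Tnfrsf4 and Tnfrsf18 are direct neighbours in the RefSeq gene table, with 0 protein-coding genes between them. Their gap within arrays overlapped between the groups (difference -0.40, exact permutation p = 0.3, also 0.3 adjusted over the 3 pairs, in a test that cannot go below 0.1).

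Tnfrsf9 was 8.45, 8.15 and 8.83 in Con A replicates 1 to 3, against 7.91, 8.16 and 8.20 in PBS replicates 1 to 3. Con A replicate 2 lay inside the PBS range, and Con A replicate 3 was well above all others. The difference of 0.39 (95% interval -0.01 to 0.78) did not pass (limma adjusted p = 0.217). The downstream of its 2 promoter windows is shown because it alone among the member windows held the NF-kB consensus. It spans chr4:150927749-150928048 on the plus strand of GRCm38.p6, and the window of Tnfrsf18, chr4:156026072-156026371 on the plus strand, is set beside it as that of the costimulator that rose most. Capitals mark GAS (first base at -136 for Tnfrsf9 and -99 for Tnfrsf18), NF-kB as a pair of overlapping matches (first bases at -43 and -42) and AP-1 (first base at -15).
Tnfrsf9: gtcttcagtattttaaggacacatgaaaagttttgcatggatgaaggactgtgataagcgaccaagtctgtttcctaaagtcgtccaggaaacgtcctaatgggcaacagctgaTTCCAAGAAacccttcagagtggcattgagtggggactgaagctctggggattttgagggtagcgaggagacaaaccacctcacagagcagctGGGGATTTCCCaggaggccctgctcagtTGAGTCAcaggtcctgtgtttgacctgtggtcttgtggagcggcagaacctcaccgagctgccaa
Tnfrsf18: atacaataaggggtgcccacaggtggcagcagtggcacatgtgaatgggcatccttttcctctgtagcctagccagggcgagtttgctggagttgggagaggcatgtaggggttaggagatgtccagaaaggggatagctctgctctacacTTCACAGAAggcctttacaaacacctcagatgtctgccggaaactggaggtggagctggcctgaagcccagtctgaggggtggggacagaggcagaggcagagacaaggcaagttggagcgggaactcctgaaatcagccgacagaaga

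Markers of cells known for these costimulators were read beside them. Of 10 measured T cell markers, 0 were called in either direction by limma, while 3 were higher and 0 lower at an unadjusted p under 0.05. Their mean log2 level was 6.69 to 6.83 after Con A and 6.65 to 6.75 after PBS. Foxp3, which defines regulatory T cells, differed by -0.02 (limma adjusted p = 0.927). Il2ra, the interleukin-2 receptor alpha chain found on regulatory T cells and on activated cells of several kinds, rose by 1.94 (adjusted p = 0.024), at 8.49, 7.86 and 9.29 in Con A replicates 1 to 3 and 6.12, 6.36 and 7.35 in PBS replicates 1 to 3. Ctla4, an inhibitory receptor of T cells, rose by 0.58 (adjusted p = 0.0345). Both lost the call in 4 of the 6 fits with 1 array left out. Of 11 eosinophil, basophil and mast cell markers, 5 rose and 0 fell by limma (8 and 0 at an unadjusted p under 0.05), and their mean log2 level was 8.95, 8.34 and 9.20 in Con A replicates 1 to 3, against 7.64, 8.20 and 8.05 in PBS replicates 1 to 3. Of 8 NK cell markers 0 were called (1 was higher and 0 lower at an unadjusted p under 0.05), with mean log2 levels of 7.42, 6.70 and 7.69 in Con A replicates 1 to 3 and 7.03, 7.20 and 7.42 in PBS replicates 1 to 3. Tnfrsf9, Il2ra and both of these lists had their highest Con A value in replicate 3 and their lowest in replicate 2, and their lowest PBS value in replicate 1. Tnfrsf18 and Tnfrsf4 did not share that order. The part of such cells in the receptor values was not tested.

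Tnfrsf13b encodes TACI, a receptor for BAFF and APRIL on B cells and some macrophages. It was 9.20, 9.34 and 9.09 after Con A and 8.79, 8.74 and 8.78 after PBS. The PBS arrays lay within 0.05 log2 units of each other, and the groups did not overlap. The rise was 0.44, or 1.36-fold (95% interval 0.25 to 0.64, limma adjusted p = 0.0147). Without PBS replicate 1 or 2 the adjusted p was 0.0578 or 0.051. Of 10 measured B and plasma cell markers, 0 were called higher and 1 lower by limma (1 and 5 at an unadjusted p under 0.05). Their mean log2 level was 7.19 to 7.31 after Con A and 7.25 to 7.52 after PBS, and Ms4a1, which encodes CD20, fell by 0.45 (adjusted p = 0.0282). The part of B cells or macrophages in the Tnfrsf13b values was not tested.

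Tnfrsf26 belongs to a mouse cluster of receptor genes on a single chromosome, where the RefSeq table has Tnfrsf22 next to it and Tnfrsf23 next to Tnfrsf22, and its ligand is not settled. It was 10.56, 10.38 and 10.46 in Con A replicates 1 to 3, against 9.05, 9.48 and 9.27 in PBS replicates 1 to 3. The groups were 0.90 log2 units apart, the widest separation in the set. The rise was 2.30-fold, with means of 10.47 ± 0.09 after Con A and 9.27 ± 0.22 after PBS (log2 difference 1.20, 95% interval 0.92 to 1.48, limma adjusted p = 0.00148), and the call held in all 15 alternatives. The decoy receptor genes Tnfrsf22 and Tnfrsf23, chosen after their values were seen, differed by 0.45 and 0.42 and did not pass (limma adjusted p = 0.079 and 0.0749). Tnfrsf22 passed in 3 of the 15 alternatives and Tnfrsf23 in 2, with quantile normalisation in both cases (adjusted p = 0.0337 and 0.0492).

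The genes most like Tnfrsf26 in pattern were taken by the root mean square difference over the 6 arrays after each gene was centred on its own mean. They were Mtbp at 0.05 log2 units, Chpt1 at 0.09 and Fam126b at 0.10. Mtbp was 8.27, 8.09 and 8.11 after Con A and 6.83, 7.26 and 7.06 after PBS. Like Tnfrsf26 it was lowest in PBS replicate 1 and highest in Con A replicate 1, a likeness that the choice by pattern brings about.

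Of the other 18 genes of the receptor superfamily on the array, 0 rose and 3 fell by limma, and 4 were higher and 4 lower at an unadjusted p under 0.05. Their median difference was 0.03. Tnfrsf21, which encodes death receptor 6, was 10.44, 9.99 and 10.41 after Con A and 11.68, 11.53 and 11.52 after PBS, and it fell by 1.30 (95% interval -1.60 to -0.99, adjusted p = 0.0015). Tnfrsf8, which encodes CD30, fell by 0.48 (adjusted p = 0.0142) and Relt by 0.47 (adjusted p = 0.00946). Leaving out PBS replicate 1 ended the call of Tnfrsf8 (adjusted p = 0.0595). Cd40 was higher by 1.63 and just missed the test (limma adjusted p = 0.0509), with the lowest Con A array at 9.86 and the highest PBS array at 9.83. Without PBS replicate 3, 2 of these genes were called higher, and without Con A replicate 1 or PBS replicate 2, 1 was. The count called higher was 3 with quantile normalisation and 3 with array weights.

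Ligands of the 10 receptors were read from a list of 10, of which 9 were measured (Tnfsf13 is not analysed here). Among them 3 rose and 1 fell by limma (4 and 1 at an unadjusted p under 0.05). For this list and those that follow, the shares called over all genes were 4.59% higher and 7.22% lower. Tnf was 11.78, 12.28 and 12.16 after Con A and 10.82, 10.73 and 11.23 after PBS, a 2.21-fold rise (log2 difference 1.15 with a 95% interval of 0.75 to 1.55, adjusted p = 0.00604). The lymphotoxin genes Ltb and Lta rose by 0.55 and 0.66 (adjusted p = 0.00638 and 0.037), and the call of Lta ended without Con A replicate 2 or 3 or PBS replicate 1 or 2, at adjusted p up to 0.14. Tnfsf14, which encodes LIGHT, the ligand of HVEM and of the lymphotoxin beta receptor, fell by 0.59 (9.62, 9.65 and 9.80 after Con A, against 10.23, 10.29 and 10.31 after PBS, adjusted p = 0.00387). Tnfrsf14 and its ligand gene had calls in opposite directions. The call of Tnfrsf14 was lost in each of the 6 fits with 1 array left out, and that of Tnfsf14 in none. Fasl, the ligand of Fas, differed by 0.28 (95% interval 0.02 to 0.54) and did not pass (adjusted p = 0.174). Tnfsf18 and Tnfsf4, ligands of GITR and OX40, differed by 0.08 each (adjusted p = 0.64 and 0.818), at levels between 4.50 and 5.43 in every array. Tnfsf9, the ligand of 4-1BB, differed by 0.04 and Tnfsf13b, which encodes BAFF, by -0.35 (adjusted p = 0.965 and 0.324).

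**Figure D4:**
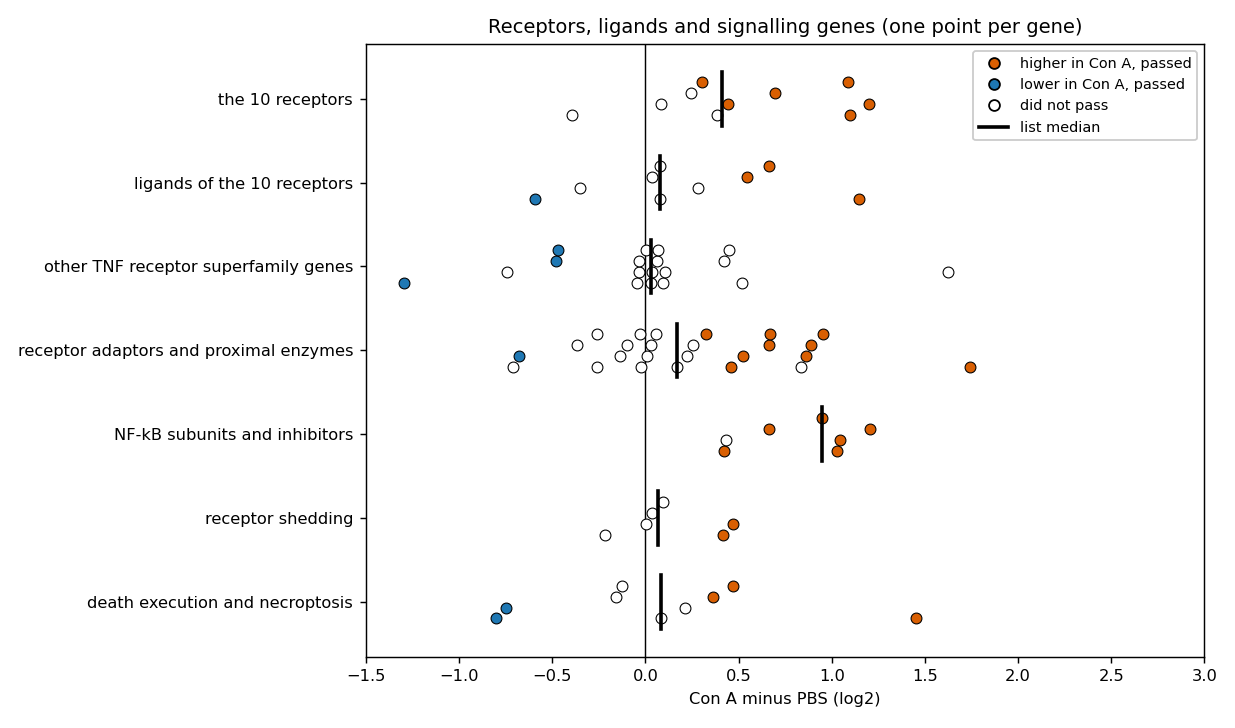
Difference of each gene, Con A minus PBS (horizontal axis, log2), for the 10 receptors and for lists of their ligands, other family members, adaptors, NF-kB genes, shedding genes and death genes, 1 point per gene, with fill for genes that passed at an adjusted p under 0.05 and a bar for the list median. The 7 measured NF-kB genes all lie above 0, and the 18 other receptor genes centre on 0.03.

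Of 25 measured adaptors and proximal enzymes (Ripk1, Traf3 and Chuk are not analysed here), 9 rose and 1 fell by limma, with a median difference of 0.17. At an unadjusted p under 0.05, 11 were higher and 5 lower. Tnfaip3, which encodes the NF-kB brake A20, rose by 1.74 (12.22 ± 0.27 after Con A and 10.48 ± 0.60 after PBS, adjusted p = 0.00879). Birc3, a ubiquitin ligase recruited by TRAF2, rose by 0.96 (adjusted p = 0.00416). The adaptor gene Traf6 rose by 0.89 and Cflar, which encodes the caspase 8 inhibitor c-FLIP, by 0.86 (adjusted p = 0.0015 and 0.00859). Map3k14, which encodes the kinase NIK of the alternative NF-kB pathway, fell by 0.68 (adjusted p = 0.0384). The death domain adaptor genes Tradd and Fadd differed by -0.02 and 0.01, with adjusted p of 0.912 and 0.966. With 1 array left out, the count that rose ranged from 6 to 10. The count that fell was 2 without Con A replicate 3, and it was 0 without Con A replicate 1 or 2 or PBS replicate 1.

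NF-kB subunit and inhibitor genes rose in 6 of 7 measured cases (Nfkb1 is not analysed here), with a median difference of 0.95 and 0 that fell (0 also at an unadjusted p under 0.05). Relb rose by 1.20, Nfkbie by 1.04, Nfkb2 by 1.03 and Nfkbia by 0.95 (adjusted p = 0.00634, 0.0327, 0.0103 and 0.0184). PBS replicate 3 was the highest PBS array for each of these 4 genes, as it was for Fas and for the mean of the dendritic cell list. Among the Con A arrays, Relb and Nfkb2 were highest in replicate 3, as was that list. Nfkbia, Nfkbie and Fas were highest in replicate 2 there. The part of dendritic cells in these values was not tested. The count that rose was 2 without Con A replicate 2, 3 without Con A replicate 3 and 2 without PBS replicate 1, and it was 4 without PBS replicate 2. Of the 4 genes named, Relb kept its call in all 6 fits, Nfkb2 in 4, Nfkbia in 3 and Nfkbie in 2.

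Of 6 genes that act on receptor shedding, 2 rose and 0 fell by limma. At an unadjusted p under 0.05, 1 was lower, the sheddase gene Adam10 (difference -0.21, adjusted p = 0.0956). Rhbdf2, a partner of the sheddase ADAM17, rose by 0.42 and Erap1, whose product is reported to promote shedding of TNF receptor 1, by 0.47 (adjusted p = 0.0173 and 0.00994). Adam17 itself differed by 0.01 (95% interval -0.33 to 0.34). Rhbdf2 lost its call without Con A replicate 2 or 3 or PBS replicate 1 or 2.

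Among 9 measured genes of death execution and necroptosis, 3 rose and 2 fell by limma (4 and 2 at an unadjusted p under 0.05). Mlkl, the effector of necroptosis, was 9.38, 9.58 and 9.40 after Con A and 7.72, 8.29 and 7.999 after PBS, a 2.74-fold rise (adjusted p = 0.00149). Ripk3, the kinase that activates it, rose by 0.47 (adjusted p = 0.0287). Bid, which links caspase 8 to the mitochondrial pathway, fell by 0.80 and Casp9 by 0.75 (adjusted p = 0.00128 and 0.00416). Ripk3 lost its call in 5 of 6 fits with 1 array left out (all but the one without PBS replicate 3), at adjusted p up to 0.109. The count that rose was then 1, and 2 without PBS replicate 3, and the 2 falls kept their count in all 6 fits.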

How the data were processed

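Values were taken from the deposited table of a mouse Affymetrix gene array, in log2 units. Per the submitters' processing notes the authors used RMA and Partek, without versions or settings. RMA corrects background, equalises array distributions and summarises probes. Differences of very dim and very bright genes tend to be compressed in such array values. Array medians lay between 7.05 and 7.08, and no pair of arrays was identical (0 pairs). Per the labels' protocols, RNA from the sorted cells was amplified over whole transcripts and biotin-labelled.

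Rows with 1 symbol in the platform annotation were kept (21789 of 35556), and the row with the highest mean stood for a gene, leaving 19938 genes. The groups were tested with limma 3.58.1 under R 4.3.3, using lmFit, then eBayes, with two-sided p-values, and a gene was called where its adjusted p lay under 0.05. A difference is the Con A mean minus the PBS mean. Its 95% interval comes from the moderated variance and is not adjusted for multiple genes. Gaps between genes were compared by exact permutation over arrays. The fit was tested on simulated data. Sequences are from RefSeq, GRCm38.p6. No genome build of the array was given.

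The receptors and the lists were chosen with earlier results of these data known. Named genes were all 10 receptors, up to 4 called genes with the largest difference per list, and the 3 genes closest in pattern to the member that rose most. Genes outside that rule (Cd40, Tnfrsf22, Tnfrsf23, Tradd, Fadd, Fasl, Tnfsf4, Tnfsf9, Tnfsf13b, Tnfsf18, Map3k14, Adam10, Adam17 and markers) were chosen after their values were seen. Alternatives were the replicate number as a block, mean of rows, a filter on dim genes, other moderation, array weights, other scaling and leaving out arrays. The number of arrays limits the precision.

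Deviations from the group means, over all genes, had correlations of 0.228, -0.17 and 0.555 between same-numbered Con A and PBS arrays. The signs were mixed and the labels state no block, so the numbers were not taken to pair the arrays. The replicate 3 arrays had the highest such correlation of any Con A array with any PBS array. Whether they share a sort or a batch was not tested.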

Additional observations from a re-analysis of the deposited data

How the results depend on the processing

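Over 15 alternatives, the 10 receptor genes gave 150 values. None changed sign (0), 134 kept their side of the threshold and 16 lost a call, of which 9 were those of Tnfrsf14 and 4 those of Tnfrsf13b, with 2 for Fas and 1 for Tnfrsf18. The count of receptors that rose was 5 or 6 under block, row, filter, trend, weight and scaling choices, 2 (Tnfrsf26 and Tnfrsf4) by the unmoderated test, and 3 to 5 with 1 array left out. It was 0 for falls in every setting. Over all genes, 2355 were called, 671 by the unmoderated test and 1140 to 2765 with 1 array left out, the lowest being for PBS replicate 1, followed by 1272 for Con A replicate 2 and 1480 for Con A replicate 3. Pathway lists had 23 genes that rose and 7 that fell, 5 and 4 by the unmoderated test, 12 to 26 and 5 to 8 with 1 array left out. The rises numbered 12 when PBS replicate 1 was dropped, 13 for Con A replicate 2 or 3 and 15 for PBS replicate 2. Dropping Con A replicate 2 and PBS replicate 3 together, a choice made after seeing the data, left 4 receptors and 24 pathway genes that rose. The unmoderated test has few residual degrees of freedom with 3 arrays per group. With the replicate number as a block, although the numbers were not taken to pair the arrays (Con A replicate 1 correlated best with PBS replicate 2, at 0.538), 2539 genes were called, 5 receptors rose, and Tnfrsf14 lost its call (adjusted p = 0.0636). Of the 18 other receptor genes, 2 were called higher under that block, 3 with array weights, 3 with quantile normalisation and 1 among brighter genes, against 0. Cd40 passed under that block (adjusted p = 0.00331) and in 6 of the other 14 alternatives. In the paired test by sign change (replicate block), the gap of Tnfrsf1b to Tnfrsf1a kept its value with an exact p of 0.25, the smallest that 3 pairs allow. Without detection calls, the dimmest genes (such as Tnfsf4 and Tnfsf18) cannot be told from background.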
